A study of Mus musculus with 100 samples.

Results

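The 4 KSR-iPSC lines were compared with the female mouse embryonic fibroblasts (MEFs) across the autosomes, to describe which gene programmes were lost and gained. The members were all genes on chromosomes 1 to 19 with a log2 value above 0, that is more than 1 RPM (reads per 1000000 mapped reads), in at least 3 of the 15 libraries of MEFs and KSR-iPSCs. This left 13922 of 24483 autosomal genes, out of 25965 genes in the expression table. The last gene taken in had a third-highest log2 value of 0.01104, and the first gene left out had -0.00038.

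The series follows imprinting in mouse iPSCs and holds 100 samples, of which 18 are RNA-seq libraries and 15 are used here. MEFs came from a mid-gestation F1 hybrid embryo of a C57BL/6J mother (BL6) that carried the i4F transgene, a doxycycline-inducible cassette of Oct4, Sox2, Klf4 and c-Myc driven by rtTA, and a CAST/EiJ father (CAST). Every group therefore carried the cassette, and the 3 MEF libraries were replicates of cells from a single female embryo. KSR-iPSC lines were single colonies picked at the end of doxycycline treatment and expanded without it in medium with Knockout Serum Replacement (KSR). Per the paper, MEFs were grown in medium with foetal bovine serum, and KSR-iPSC lines in serum-free KSR medium with the cytokine LIF. Culture medium and cell state therefore changed together and cannot be told apart. F KSR2 and F KSR4 are female, M KSR3 and M KSR5 are male, and each gave 3 libraries, so replicates of a line are libraries of a single clone and p-values measure the spread between such replicates. Male MEFs were not among the RNA libraries used here, so that for the male lines the change of cell state and the change of embryo and sex cannot be told apart. Colonies were kept on feeder fibroblasts after picking, reads of the cassette and of the endogenous genes cannot be told apart in gene values, and in bulk RNA fewer cells of a type cannot be told apart from less RNA per cell.

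Fibroblasts make and remodel the extracellular matrix, hold it through integrins and contractile actin, and keep the positional Hox code of the embryonic region they came from. Mouse pluripotent stem cells are epithelial-like, divide quickly with little G1 control, rest on a transcription factor network around Pou5f1, Sox2 and Nanog, and use threonine and one-carbon metabolism to feed nucleotide synthesis and methylation. Reprogramming of fibroblasts passes through a mesenchymal-to-epithelial transition, in which matrix and mesenchymal regulators are shut down and cell junctions are built.

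The labels held against their markers. Pou5f1 (chromosome 17), which encodes the pluripotency factor OCT4, had 0 reads in all 3 MEF libraries and 726 to 1373 RPM in the 12 KSR-iPSC libraries, with a median of 979. Dppa5a (chromosome 9), an RNA-binding protein gene of naive pluripotent cells, had 0 reads in MEFs and 563 to 1552 RPM in KSR-iPSCs. Set against a floor of 3 reads per library, Pou5f1 was at least 5980-fold higher and Dppa5a at least 6050-fold higher (adjusted p of 5.77e-19 and 2.78e-16 by limma). Col1a1 (chromosome 11), the alpha-1 chain of type I collagen, stood at 17490, 11510 and 10910 RPM in MEFs, and at 2.49, 14.2 and 63.4 RPM as the lowest, median and highest KSR-iPSC value. Lox (chromosome 18), the oxidase that crosslinks collagen and elastin, read 3496, 5506 and 4775 RPM in MEFs against 0.0536, 0.557 and 52.0 RPM. No KSR-iPSC library came near the MEF range for any of the 4 markers. The highest Col1a1 and Lox values both belonged to the third library of M KSR5, and without it the highest values were 31.4 and 4.99 RPM.

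Depth was 13183036 to 17921280 reads on genes per library, with a median of 15668811. Summed over 10 fibroblast markers, MEFs held 27000 to 37700 RPM. The sum was 15.7 to 77.5 RPM in 11 KSR-iPSC libraries (at most 0.247% of the MEF mean) and 215 RPM, or 0.684%, in the third library of M KSR5. How far feeder RNA contributed to these residual reads was not tested. In the second library of F KSR4, the median-of-ratios scale moved by 0.245 on the log2 scale, and the replicates of F KSR4 differed most among themselves.

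Of the 13922 tested genes, 5680 (40.8%) rose in KSR-iPSCs, 4542 (32.6%) fell and 3700 were not called (limma, adjusted p below 0.05, mean of the 4 line means against the MEF mean). A gene was counted as gained where it rose at least 4-fold (2 on the log2 scale) with every KSR-iPSC library above every MEF library, and as lost where it fell as far with every KSR-iPSC library below. By this rule 1879 genes (13.5%) were gained and 2018 (14.5%) were lost, with median differences of 4.11 and -4.00 on the log2 scale against 0.19 for all tested genes. In each of the 4 lines taken alone against MEFs, 1839 of the gained genes were also called higher and 1922 of the lost genes lower. A difference of the same size with overlapping libraries was found in 269 genes that rose and 96 that fell. The 95% interval of the difference lay within 1 log2 unit in either direction for 3230 of the tested genes.

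**Figure D1:**
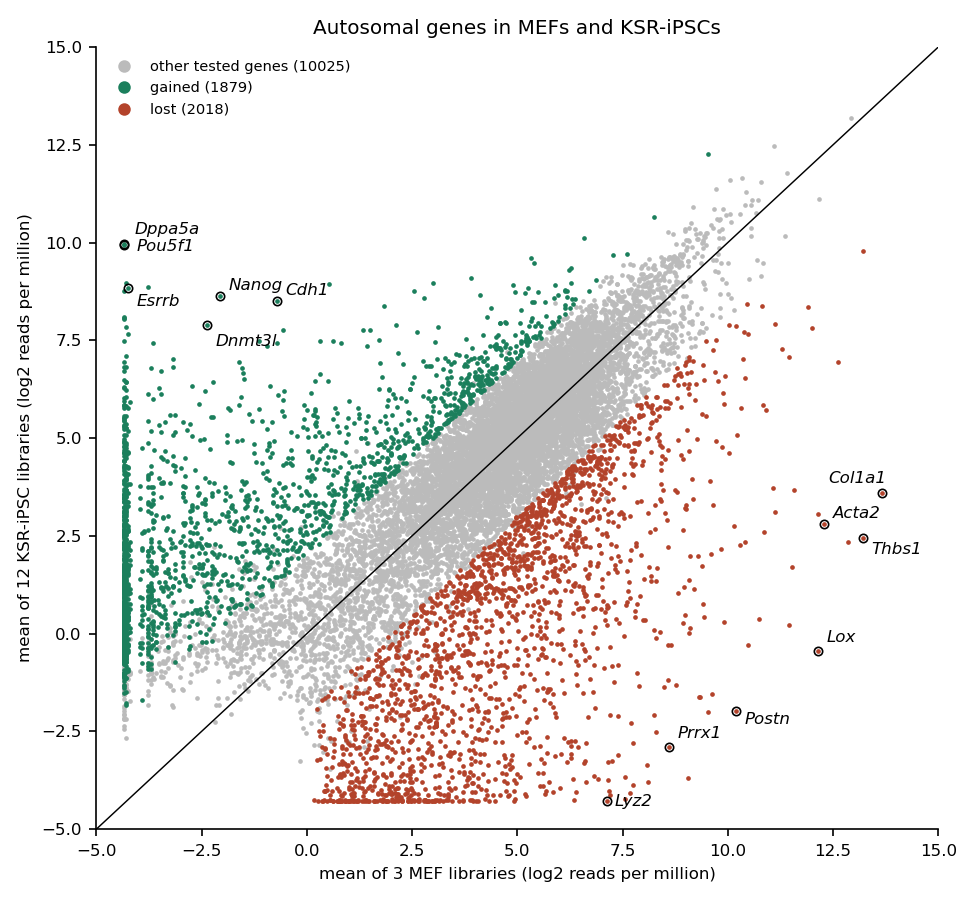
Mean log2 RPM of each tested autosomal gene in 3 MEF libraries (horizontal axis) and in 12 KSR-iPSC libraries (vertical axis). The 1879 gained genes are green, the 2018 lost genes are red, and the diagonal marks equal levels. The column of points at the left edge holds genes with no MEF reads, Pou5f1 and Dppa5a among them, and Lyz2 sits on the lower edge with no KSR-iPSC reads.

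The filter shaped part of this. Both groups reached it in 10946 genes, but 2121 passed through KSR-iPSCs only, 795 through MEFs only and 60 through both groups only when pooled, and genes that passed through a single group were kept for their level in that group. Gained genes with all 3 MEF libraries above 0 numbered 547, and lost genes with at least 3 KSR-iPSC libraries above 0 numbered 1261. No read was seen in any MEF library for 373 gained genes and in any KSR-iPSC library for 48 lost genes. A fitted difference of such genes depends on the 0.9 read that stands for 0 in the deposited values and is no bound. The same holds in part for genes with fewer than 3 reads in some libraries, whose difference and SE are given as fitted. Under median-of-ratios scaling every difference moved by -0.163, the median of all genes went from 0.19 to 0.03, and the calls split into 5134 higher and 5020 lower, so that 50.6% of calls were higher in place of 55.6%.

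Lost genes took 28.6% to 29.6% of the reads on genes in MEFs and 1.80% to 2.55% in KSR-iPSCs, while gained genes went from 1.02% to 1.15% in MEFs to 8.67% to 11.06% in KSR-iPSCs. The groups did not overlap on either count, as the choice of the genes fixes. In a typical KSR-iPSC library the median lost gene was left with 6.10% of its MEF mean. The third library of M KSR5 was highest at 8.94%, and the other 11 libraries lay between 4.77% and 7.28%. The number of lost genes without a read was 176 in that library and 256 to 364 in the others.

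**Figure D2:**
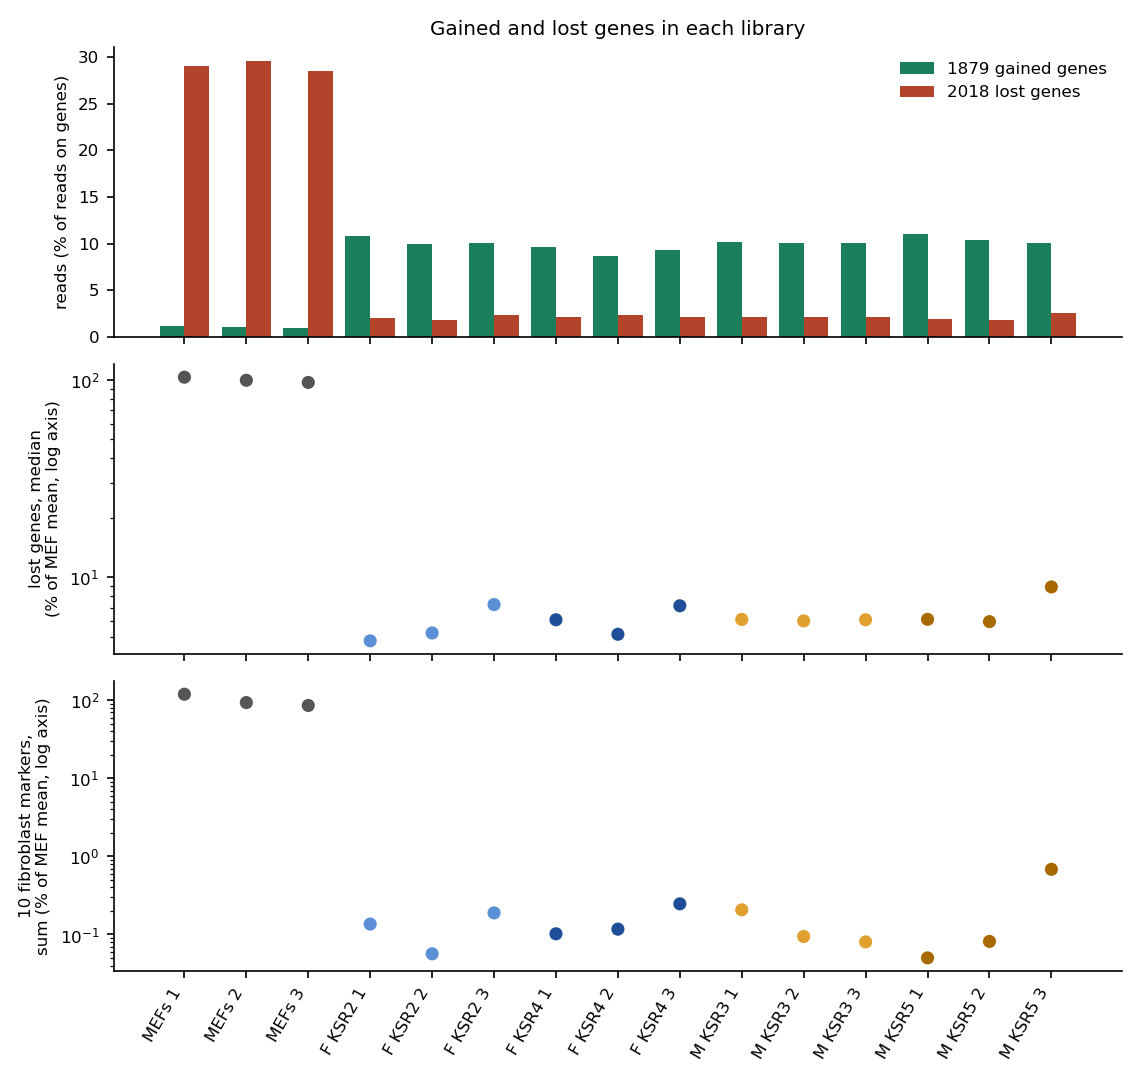
Values of the gained and lost genes in each of the 15 libraries. The bars give the 1879 gained (green) and 2018 lost (red) genes as a percent of all reads on genes. The points below give, on log axes, the median level of the lost genes and the summed level of 10 fibroblast markers as a percent of the MEF mean, with the third library of M KSR5 highest among KSR-iPSCs at 8.94% and 0.684%.

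The structural matrix fell almost as a whole. Of 38 matrix collagens and glycoproteins, 37 fell, 1 was not called and 36 were lost, with a median difference of -8.06 on the log2 scale. Postn, which encodes periostin, a matricellular protein of connective tissue, had 1041, 1337 and 1139 RPM in MEFs and 0, 0.286 and 3.07 RPM as the KSR-iPSC lowest, median and highest, a difference of -12.17 (SE 1.18). Col3a1, type III collagen of elastic tissues, went from 4026, 2405 and 2270 RPM to 0.161, 1.22 and 24.8 RPM. Thbs1, the matricellular protein thrombospondin-1 that binds and activates TGF-beta, read 7750, 11200 and 9843 RPM in MEFs against 0.718, 5.52 and 94.1 RPM. All MEF values of these genes lay far above all KSR-iPSC values, and for lost genes the rule already asks that they lie above. Col12a1, a collagen that links fibrils, fell by 10.77 (SE 0.96). Fbln5, a fibulin of elastic fibres, fell by 11.16 (SE 0.82), and the leucine-rich proteoglycan osteoglycin (Ogn) fell by 11.90 (SE 0.72). Mgp, matrix Gla protein, an inhibitor of calcification, ranked among the 10 largest losses with a difference of -12.76. Ccdc80, a secreted matrix protein of fibroblasts and fat cells, was also among these 10, and its 808, 732 and 695 RPM in MEFs compared with a KSR-iPSC median of 0.171 RPM. The third library of M KSR5 was highest for Postn, Col3a1, Thbs1, Mgp and Ccdc80.

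Enzymes that crosslink or cut the matrix went the same way, with all 32 tested members lower and 30 lost (median -5.58). Lox led the list at -12.58 (SE 1.39; adjusted p 9.12e-07 by limma). Ctsk, the collagen-degrading protease cathepsin K, went from 55.1, 88.3 and 96.9 RPM to a KSR-iPSC range of 0 to 0.560 RPM. Mmp13, collagenase 3, had 13.3, 37.9 and 40.5 RPM in MEFs and at most 0.183 RPM in KSR-iPSCs. Mmp3, stromelysin 1, read 8.12, 22.4 and 23.4 RPM in MEFs and had no read in any of the 12 KSR-iPSC libraries, which puts it at least 95.3-fold lower. For both proteases the first MEF library was the lowest of the 3. Mmp3 was picked after its values were seen, since with Mmp13 it carries a close match to the AP-1 element in front of its start. The element was in 9.38% (3 of 32) of the promoters of this list and in 7.89% (3 of 38) of those of the epithelial list. The printed promoter of the gained gene Cldn4 holds it too. The 250 bases before the starts in RefSeq's promoter table for GRCm38.p6 are shown, with that match (TGANTCA) in capitals. It begins 46 bases before the start of Mmp3 (chr9:7445572-7445821, plus strand) and 35 bases before that of Mmp13 (chr9:7272264-7272513, plus strand). The shares were counted before the deposited gene starts, which can differ.
Mmp3: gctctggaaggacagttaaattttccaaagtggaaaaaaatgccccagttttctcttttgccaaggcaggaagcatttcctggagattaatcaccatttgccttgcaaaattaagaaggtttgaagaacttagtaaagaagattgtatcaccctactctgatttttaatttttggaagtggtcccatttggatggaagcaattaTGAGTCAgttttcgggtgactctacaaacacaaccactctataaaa
Mmp13: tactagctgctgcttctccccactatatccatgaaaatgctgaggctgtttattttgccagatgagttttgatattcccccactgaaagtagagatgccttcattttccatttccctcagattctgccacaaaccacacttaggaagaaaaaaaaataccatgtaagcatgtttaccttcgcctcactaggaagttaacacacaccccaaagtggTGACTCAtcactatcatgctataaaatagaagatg

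Basement membrane genes did not move as a block. Among 18 tested, 9 fell, 6 rose and 3 were not called, beside 32.6% lower and 40.8% higher among all genes. The median was -0.56 beside 0.19 for all genes. Laminin chains parted: Lama2 and Lama4, the alpha chains of muscle and of vessel basement membranes, differed by -7.99 (SE 0.68) and -6.40 (SE 0.38). Lama1, the alpha chain of the early embryo, read 6.29, 6.32 and 4.10 RPM in MEFs and 16.0, 80.5 and 260 RPM as KSR-iPSC lowest, median and highest, a rise of 3.80 (SE 0.38). Lama3, the alpha chain of epithelial laminin-332, rose by 5.43 (SE 0.24) from 0.733, 1.38 and 1.37 RPM to between 29.7 and 74.5 RPM. Neither gene overlapped between the groups, as the rule for gained genes asks.

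Receptors for the matrix and mesenchymal adhesion molecules fell in 20 of 24 genes and rose in 3 (18 lost, 1 gained; median -3.83). Itga11, the integrin chain that binds fibrillar collagen, had 389, 243 and 209 RPM in MEFs and a KSR-iPSC median of 0.0256 RPM with a highest value of 0.868 RPM. Cdh11, a cadherin of mesenchyme, fell by 10.94 (SE 0.92) and Cd44, the hyaluronan receptor, fell by 8.51 (SE 0.74). Against this, Itgb7, an integrin chain known from lymphocytes, rose by 4.26 (SE 0.30), from 0.550, 0.561 and 1.10 RPM to 5.53 to 30.3 RPM.

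The contractile cytoskeleton was lower in full. All 25 genes of actomyosin and of YAP target activity fell, and 22 were lost (median -4.38). Acta2, alpha smooth muscle actin, read 5176, 4516 and 5331 RPM in MEFs and 0.387, 5.83 and 60.3 RPM in KSR-iPSCs, with the highest value in the third library of F KSR4. Tagln, the actin-binding protein transgelin, went from 1851, 2113 and 2546 RPM to 0.804, 12.6 and 98.2 RPM, a difference of -7.35 (SE 1.07). Both genes spread widely among KSR-iPSC libraries, yet their highest KSR-iPSC value stayed below the lowest MEF value, as for every lost gene. The caveolar coat followed: 9 of 9 genes fell and 6 were lost (median -6.97). Cav1, caveolin-1, the main coat protein, fell by 10.97 (SE 1.22) and its partner Cav2 fell by 7.15 (SE 0.85).

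Of 55 tested mesenchymal transcription factors, 51 fell, 4 rose, 46 were lost and 1 was gained (median -4.79). Prrx1, a homeobox factor of limb and craniofacial mesenchyme, had 466, 375 and 341 RPM in MEFs and 0, 0.110 and 1.74 RPM as KSR-iPSC lowest, median and highest. Osr1, a zinc finger factor of intermediate and lateral mesoderm, fell by 8.95 (SE 0.56), Twist2, a basic helix-loop-helix factor of the dermis, fell by 8.75 (SE 0.38), and Runx2, the master factor of bone formation, fell by 7.96 (SE 0.85). The Hedgehog effector Gli1 was the single gained member, at 1.16, 0.713 and 1.37 RPM in MEFs and 2.74 to 24.4 RPM in KSR-iPSCs. Of 37 Hox genes, 33 fell and 32 were lost (median -5.52). Hoxc8 fell by 9.30 (SE 0.42) and Hoxa9 fell by 8.10 (SE 0.55), both patterning genes of the trunk and limb. Hoxb1, the hindbrain gene, rose from 0 reads in MEFs to a KSR-iPSC median of 1.13 RPM, and Hoxb13, a gene of the tail end, from at most 0.153 RPM to a median of 1.09 RPM. Both were low, and their libraries overlapped with those of MEFs. With genes lacking reads set at their bound, the medians of these 2 lists were -4.36 and -4.92.

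AP-1, the Fos and Jun dimer that drives fibroblast enhancers, fell unevenly: 4 of 8 genes fell, 3 were lost and 4 were not called (median -1.51). Among all tested genes 32.6% fell and 14.5% were lost. Fosl2, Fosl1 and Jun differed by -5.60 (SE 0.71), -4.05 (SE 0.61) and -2.93 (SE 0.40). For Jund, 177, 153 and 187 RPM in MEFs stood within the KSR-iPSC range of 140 to 464 RPM (difference 0.39, adjusted p 0.116 by limma).

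**Figure D3:**
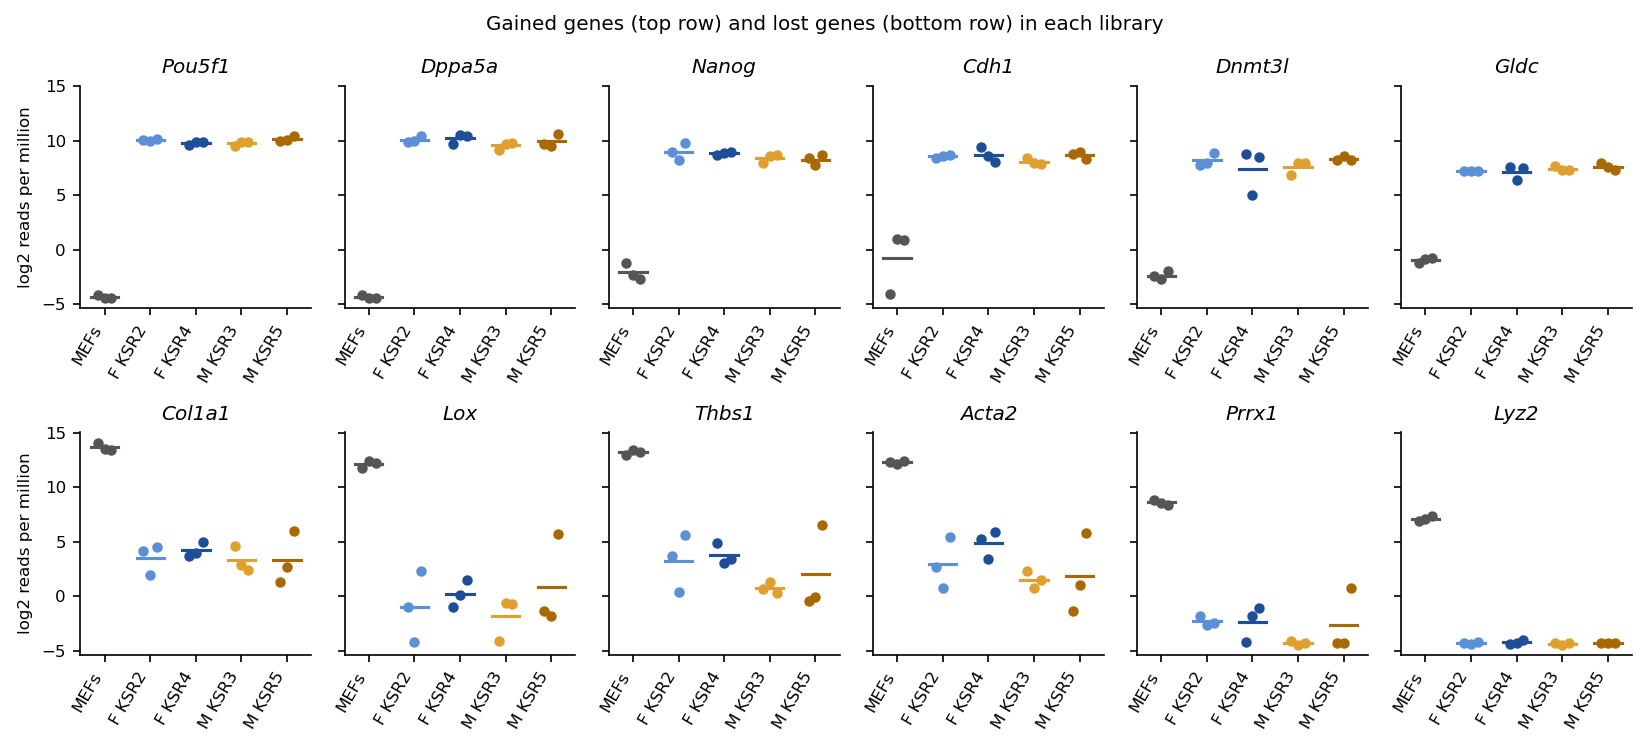
Log2 RPM of 6 gained genes (top) and 6 lost genes (bottom) in each library, by group, with the group mean as a bar. Every KSR-iPSC point of a gained gene lies above the MEF points by the rule, and the lowest Dnmt3l point is in F KSR4. The third library of M KSR5 is the highest of its line for Col1a1, Lox, Thbs1, Acta2 and Prrx1.

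Secreted ligands and their receptors were described separately. Among 38 secreted growth factors and antagonists, 33 fell, 3 rose and 30 were lost (median -6.04, or -5.27 with genes without reads at their bound). Grem1, the BMP antagonist gremlin, read 128, 526 and 468 RPM in MEFs and 0 to 4.28 RPM in KSR-iPSCs. Inhba, the activin A subunit, read 64.1, 270 and 268 RPM against 0 to 4.28 RPM. In both the first MEF library was lowest by a wide margin and still lay above every KSR-iPSC library, as for every lost gene. The neurite growth factor midkine (Mdk) was the gained member, up from 21.6, 17.4 and 24.1 RPM to 198, 304 and 617 RPM as lowest, median and highest.

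Among 28 growth factor receptors, 22 fell, 5 rose, 14 were lost and 2 were gained (median -2.29). Osmr, the oncostatin M receptor, fell by 9.30 (SE 0.74) and Pdgfrb, the PDGF receptor of mesenchyme, fell by 7.68 (SE 0.37). Kit, the stem cell factor receptor, rose by 5.92 (SE 0.35) from 0.550, 1.33 and 1.21 RPM to between 22.2 and 101 RPM, and Fgfr4, an FGF receptor, by 5.61 (SE 0.40). These 4 receptors did not overlap between the groups, as the rule for gained and lost genes asks.

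Innate immune genes were reduced in part. Chemokines, cytokines and complement fell in 16 of 21 genes (14 lost, none higher; median -5.08, or -3.69 at the bound). Ccl2, the monocyte chemoattractant, went from 39.8, 77.1 and 92.1 RPM to a KSR-iPSC median of 0.0277 RPM, and Csf1, the macrophage growth factor, fell by 7.78 (SE 0.90). Interferon response genes were mixed, with 17 of 34 lower, 7 higher, 9 lost and 4 gained (median -0.67). Among all tested genes 32.6% were lower, 40.8% higher, 14.5% lost and 13.5% gained. Tlr4, the lipopolysaccharide receptor, fell by 7.33 (SE 0.45) and Ifit2, an interferon-induced antiviral gene, fell by 4.95 (SE 0.58). The antiviral 2'-5'-oligoadenylate synthetases Oas1a and Oas3 rose by 5.52 (SE 0.58) and 5.27 (SE 0.47). Antigen presentation fell in 9 of 14 genes, with 3 lost, 5 not called and none higher (median -1.54), beside the same 32.6% lower and 14.5% lost. B2m, the light chain of class I molecules, had 298, 329 and 409 RPM in MEFs and 4.26, 15.9 and 37.1 RPM in KSR-iPSCs, and the non-classical class I gene H2-T23 fell by 5.12 (SE 0.56).

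Lysosomal genes fell by less, with 20 of 26 lower, 2 higher and 7 lost (median -1.25). Ctss, the protease cathepsin S, fell by 6.95 (SE 0.65), whereas Tfeb, a transcription factor of lysosomal genes, rose by 2.12 (SE 0.27). Among 21 cell cycle inhibitors and p53 pathway genes, 10 fell, 7 rose and 3 were lost (median -0.60). Among all tested genes 32.6% fell, 40.8% rose and 14.5% were lost, and a share near these is no result about the list. Cdkn2b, the CDK inhibitor p15, fell from 66.3, 82.3 and 93.4 RPM to 1.23 to 7.43 RPM. Cdkn1a, the p53-induced inhibitor p21, fell by 1.79 (SE 0.26). Trp53 itself rose by 1.79 (SE 0.31). In MEFs it read 157, 135 and 156 RPM, and in 11 KSR-iPSC libraries 511 to 657 RPM. The second library of F KSR4, at 135 RPM, stood at the MEF level.

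All 32 core and naive pluripotency genes rose and 31 were gained, with a median difference of 10.36, or 9.05 with genes lacking MEF reads at their bound. Nanog, the homeobox factor of the naive network, read 0.427, 0.204 and 0.158 RPM in MEFs and 215, 415 and 860 RPM as KSR-iPSC lowest, median and highest, a rise of 10.70 (SE 0.31). Esrrb, an orphan nuclear receptor that sustains self-renewal, went from at most 0.0611 RPM to 299 to 693 RPM. Sall4 and Zfp42, zinc finger factors of embryonic stem cells, had 0 reads in MEFs and were at least 1630-fold and 1610-fold higher. Tdgf1, the Nodal co-receptor Cripto, was at least 2640-fold higher, from 0 reads to a median of 477 RPM. Utf1, a chromatin protein of pluripotent cells, rose by 12.62 (SE 0.39). L1td1, an RNA-binding protein derived from a LINE-1 element, had a single read in MEFs and 404 to 851 RPM in 11 KSR-iPSC libraries, but 42.4 RPM in the second library of F KSR4. Utf1 was lowest in the same library, at 134 RPM against 364 to 778 RPM elsewhere.

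Genes of formative and primed pluripotency rose in 12 of 14 cases, all 12 gained (median 5.40). Lefty2, a Nodal antagonist, and Nodal itself had no MEF reads and were at least 642-fold and 398-fold higher, and Otx2, the homeobox factor of the epiblast, at least 244-fold higher. Fgf5, the textbook marker of the primed state, was not called: it read 2.87, 4.18 and 3.15 RPM in MEFs and ran from 0 to 10.9 RPM in KSR-iPSCs with a median of 1.73 (difference -1.19, SE 1.29, adjusted p 0.414 by limma). Sall2 fell by 1.64 (SE 0.33).

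Epithelial genes rose in 31 of 38 cases, with 30 gained, 2 lower and 5 not called (median 5.77, or 4.99 at the bound). Cdh1, which encodes E-cadherin, the adherens junction cadherin of epithelia, had 0.0611, 1.94 and 1.89 RPM in MEFs and 230, 369 and 700 RPM in KSR-iPSCs, a rise of 9.23 (SE 0.71; adjusted p 1.59e-08 by limma). Epcam, an epithelial adhesion molecule, read 0, 0.153 and 0.158 RPM in MEFs and 48.2, 158 and 208 RPM in KSR-iPSCs. Elf3, an ETS factor of epithelia, went from at most 0.0526 RPM to 19.2 to 151 RPM. Cldn4, a tight junction claudin, rose from 0, 0.255 and 0.683 RPM to 32.6, 86.7 and 188 RPM. None of the 4 overlapped between the groups, as the rule for gained genes asks. P-cadherin (Cdh3), a cadherin of basal epithelium, went the other way, from 65.5, 34.4 and 28.3 RPM to a median of 19.5 RPM, a difference of -1.12 (SE 0.23).

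Promoters of these genes are shown because 65.8% of the epithelial list (25 of 38) carried the E2-box CAGGTG, the letters to which the repressors SNAI and ZEB are known to bind, within 250 bases before the gene start. Capitals mark CAGGTG, or CACCTG where it lies on the other strand. Other motifs are left in small letters, among them the AP-1 match TGACTCA in the Cldn4 stretch. Epcam (chr17:87635729-87635978, plus strand) has 2 matches, beginning 187 and 19 bases before the start. Elf3 (chr1:135258473-135258722, minus strand) has 1, beginning 140 bases before it. Cldn4 (chr5:134946935-134947184, minus strand), picked after its values were seen, has 1, beginning 14 bases before it. The sequences are from RefSeq's promoter table for GRCm38.p6 and read towards the gene. Shares of promoters were counted before the deposited gene starts, so a printed stretch can differ from the counted one.
Epcam: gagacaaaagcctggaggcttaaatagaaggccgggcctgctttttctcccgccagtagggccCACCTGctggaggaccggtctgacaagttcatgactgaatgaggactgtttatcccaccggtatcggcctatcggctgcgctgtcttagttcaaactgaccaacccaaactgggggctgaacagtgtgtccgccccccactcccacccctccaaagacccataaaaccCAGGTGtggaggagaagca
Elf3: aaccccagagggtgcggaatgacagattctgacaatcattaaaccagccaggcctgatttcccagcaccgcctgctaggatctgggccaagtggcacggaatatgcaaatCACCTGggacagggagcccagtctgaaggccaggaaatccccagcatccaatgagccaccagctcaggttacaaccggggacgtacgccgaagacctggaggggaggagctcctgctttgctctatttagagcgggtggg
Cldn4: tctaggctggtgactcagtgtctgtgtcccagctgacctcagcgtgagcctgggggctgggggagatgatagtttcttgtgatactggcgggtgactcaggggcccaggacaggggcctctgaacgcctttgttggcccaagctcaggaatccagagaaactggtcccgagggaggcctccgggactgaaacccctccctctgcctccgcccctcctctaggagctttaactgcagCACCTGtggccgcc

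CAGGTG was present, on either strand, in 26.4% of 1878 gained promoters, 12.3% of 2018 lost promoters and 16.3% of all 13919 promoters with sequence. The order held within each class of CpG number: 23.6%, 27.8% and 27.0% of gained promoters with under 5, 5 to 14 and 15 or more CpG had it, against 10.8%, 13.8% and 11.8% of lost and 18.6%, 17.6% and 14.5% of all promoters. Within the lists, it was found in 18.8% (6 of 32) of core and naive pluripotency promoters, 7.89% (3 of 38) of matrix promoters, 7.27% (4 of 55) of mesenchymal transcription factor promoters and 11.7% (9 of 77) of ribosomal protein promoters.

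Other letters differed less. The AP-1 element TGANTCA was in 6.34% of lost, 4.79% of gained and 4.28% of all promoters, and in promoters with under 5 CpG in 11.6%, 6.40% and 8.33%. The TEAD element GGAATG was in 13.1%, 11.3% and 10.7%, and in 36.0% (9 of 25) of actomyosin and YAP target promoters. The E-box CACGTG was in 7.19% of gained, 5.65% of lost and 8.07% of all promoters. For the TATA box TATAAA these shares were 8.41%, 9.42% and 7.11%, and for the octamer ATGCAAAT they were 1.54%, 1.83% and 1.31%. Gained and lost promoters were both poorer in CpG than all promoters, with medians of 9 and 11 against 14, and 27.5% and 24.7% of them had under 5 CpG against 15.7%. Both strands were searched, CAGGTG and CACGTG share the frame CANNTG but no stretch matches both, and a match describes the sequence with no test of binding.

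**Figure D4:**
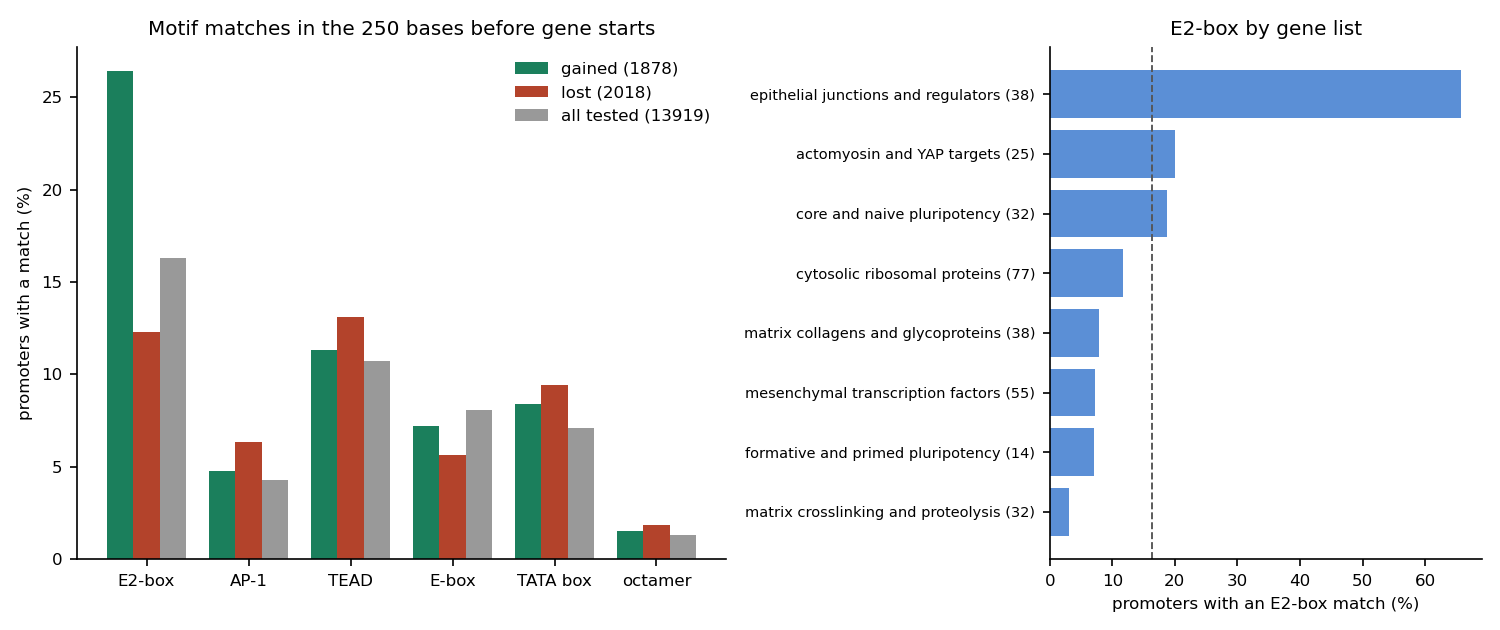
Share of promoters, in percent, with a match to each motif in the 250 bases before the gene start. The left panel gives gained, lost and all tested genes, with 26.4%, 12.3% and 16.3% for the E2-box CAGGTG. The right panel gives the E2-box share by gene list with the share of all genes as a dashed line, and the epithelial list stands at 65.8%.

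Regulators of DNA methylation and chromatin rose in 27 of 28 cases, 20 of them gained (median 2.39). Dnmt3l, the cofactor of de novo methylation in germ cells and embryos, had 0.183, 0.153 and 0.263 RPM in MEFs and 32.6, 274 and 481 RPM as KSR-iPSC lowest, median and highest. The lowest value was in the second library of F KSR4, and the next lowest was 117 RPM in M KSR3. Dnmt3b, the de novo methyltransferase of the epiblast, rose by 6.27 (SE 0.36), and Tet1, the 5-methylcytosine oxidase of pluripotent cells, by 6.54 (SE 0.33). Its relative Tet3 was the single lower member at a difference of -1.86 (SE 0.28), from 45.9, 38.4 and 30.6 RPM to 5.37 to 17.8 RPM. Among 24 germline genes, 23 rose and 22 were gained (median 7.41, or 6.01 at the bound). The 25 autosomal genes of this list summed to 4.89 to 6.29 RPM in MEFs, and 8 had no read there. Most tested members could thus pass the filter only through KSR-iPSCs, which largely fixes the direction in advance. Hormad1, a meiotic chromosome axis protein, had no MEF reads and was at least 476-fold higher. Stra8, the gene of meiotic entry, went from at most 0.0526 RPM to 23.2 to 98.9 RPM, and Dazl, an RNA-binding protein of germ cells, to 11.4 to 139 RPM. Brdt, a testis bromodomain gene, read 2.08, 1.38 and 2.00 RPM in MEFs and 0.717 to 2.98 RPM in KSR-iPSCs, with a difference of -0.13 (SE 0.41).

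Proliferation genes rose together but by smaller steps. DNA replication genes rose in 45 of 49 cases with 24 gained (median 1.99), and repair and checkpoint genes in 27 of 28 with 17 gained (median 2.38). Ung, the uracil glycosylase, read 10.6, 6.68 and 6.52 RPM in MEFs and 76.7 to 147 RPM in KSR-iPSCs. Mcm10, Cdt1 and Orc1, which load or fire replication origins, rose by 3.29 (SE 0.14), 3.25 (SE 0.15) and 3.11 (SE 0.14). Msh6, which acts in DNA mismatch repair, rose by 4.08 (SE 0.16). It went from 50.0, 41.7 and 35.1 RPM to 399, 742 and 1039 RPM as KSR-iPSC lowest, median and highest.

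Of 42 cyclins and mitosis genes, 33 rose, 2 fell and 7 were gained (median 1.33). Among all tested genes 40.8% rose, 32.6% fell and 13.5% were gained, and the gained share of this list is near that. E2f2, an activator of S phase genes, rose by 3.87 (SE 0.27) and Ccnb1, the mitotic cyclin B1, by 2.25 (SE 0.19). The 2 members that fell were D-type cyclins of G1. Ccnd2 read 668, 644 and 572 RPM in MEFs and 0.939, 4.44 and 17.7 RPM in KSR-iPSCs, a difference of -7.32 (SE 0.60), and Ccnd1 fell by 1.20 (SE 0.32), from 225, 204 and 182 RPM to between 32.4 and 163 RPM.

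Metabolic lists rose by smaller medians, led by a few members. Threonine, one-carbon and nucleotide metabolism rose in 19 of 26 genes with 7 gained (median 1.13). Tdh, threonine dehydrogenase, had no read in MEFs and 48.4, 287 and 536 RPM in KSR-iPSCs, at least 1670-fold higher. Gldc, the decarboxylase of the glycine cleavage system, read 0.427, 0.561 and 0.578 RPM in MEFs and 85.5, 163 and 249 RPM in KSR-iPSCs, a rise of 8.32 (SE 0.21). Shmt1, the cytosolic serine hydroxymethyltransferase, rose by 2.94 (SE 0.15), while Phgdh, the first enzyme of serine synthesis, fell by 0.63 (SE 0.14). Glucose transport and glycolysis rose in 13 of 22 genes and fell in 3 (median 0.62), beside 40.8% higher and 32.6% lower among all tested genes. Slc2a3, the glucose transporter GLUT3, went from 4.34, 11.6 and 10.3 RPM to 295, 431 and 972 RPM, and Pdk1, the kinase that holds pyruvate out of mitochondria, rose by 2.99 (SE 0.35). Of 71 nuclear genes of the respiratory chain, 44 rose, 1 fell and none was gained (median 0.57), with Cox7c, a subunit of cytochrome oxidase, up by 1.47 (SE 0.17).

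Cytosolic ribosomal proteins rose in 70 of 77 cases with 2 gained (median 0.79), and ribosome biogenesis genes in all 27 (median 1.29) with none gained. Median-of-ratios scaling left 65 and 27 of these calls, and 32 of the 44 in the respiratory chain. Rpl8 rose by 1.19 (SE 0.17) and Ncl, nucleolin, by 1.65 (SE 0.20). Rpl10l, an intronless copy of the X-linked gene Rpl10 known from the testis, had no MEF reads and 22.2 to 100.2 RPM in KSR-iPSCs, and reads shared with its parent could not be separated here. Telomere genes rose in 12 of 14 cases with 2 gained (median 1.41), Terf1, a telomere repeat binding protein, by 2.61 (SE 0.17). Among all tested genes 40.8% rose and 13.5% were gained, so the gained share of telomere genes is no result about them.

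RNA-binding and splicing regulators split, with 10 of 20 higher, 4 lower, 7 gained and 3 lost (median 0.53). Of all tested genes, 40.8% were higher, 32.6% lower, 13.5% gained and 14.5% lost. Lin28a, the repressor of let-7 processing, had no MEF reads and was at least 1090-fold higher, and Trim71, a ubiquitin ligase that is itself a let-7 target, rose by 8.85 (SE 0.58). Mbnl1 and Mbnl2, splicing factors that favour differentiated isoforms, differed by -3.66 (SE 0.24) and -2.88 (SE 0.26). For Mbnl1 the MEF values were 243, 257 and 248 RPM and the KSR-iPSC values ran from 12.1 to 29.7 RPM.

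Of 18 genes often used as references for RT-qPCR, 9 rose, 3 fell and 6 were not called, beside 73.4% of all tested genes called in either direction. Their median difference was 0.46, or 0.30 under median-of-ratios scaling. Gapdh, the glycolytic enzyme, read 54.0, 47.4 and 60.6 RPM in MEFs and 92.1, 129 and 338 RPM as KSR-iPSC lowest, median and highest, up by 1.38 (SE 0.25). Gusb, beta-glucuronidase of the lysosome, fell by 2.04 (SE 0.21), from 69.8, 75.5 and 81.5 RPM to between 10.6 and 25.2 RPM.

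**Figure D5:**
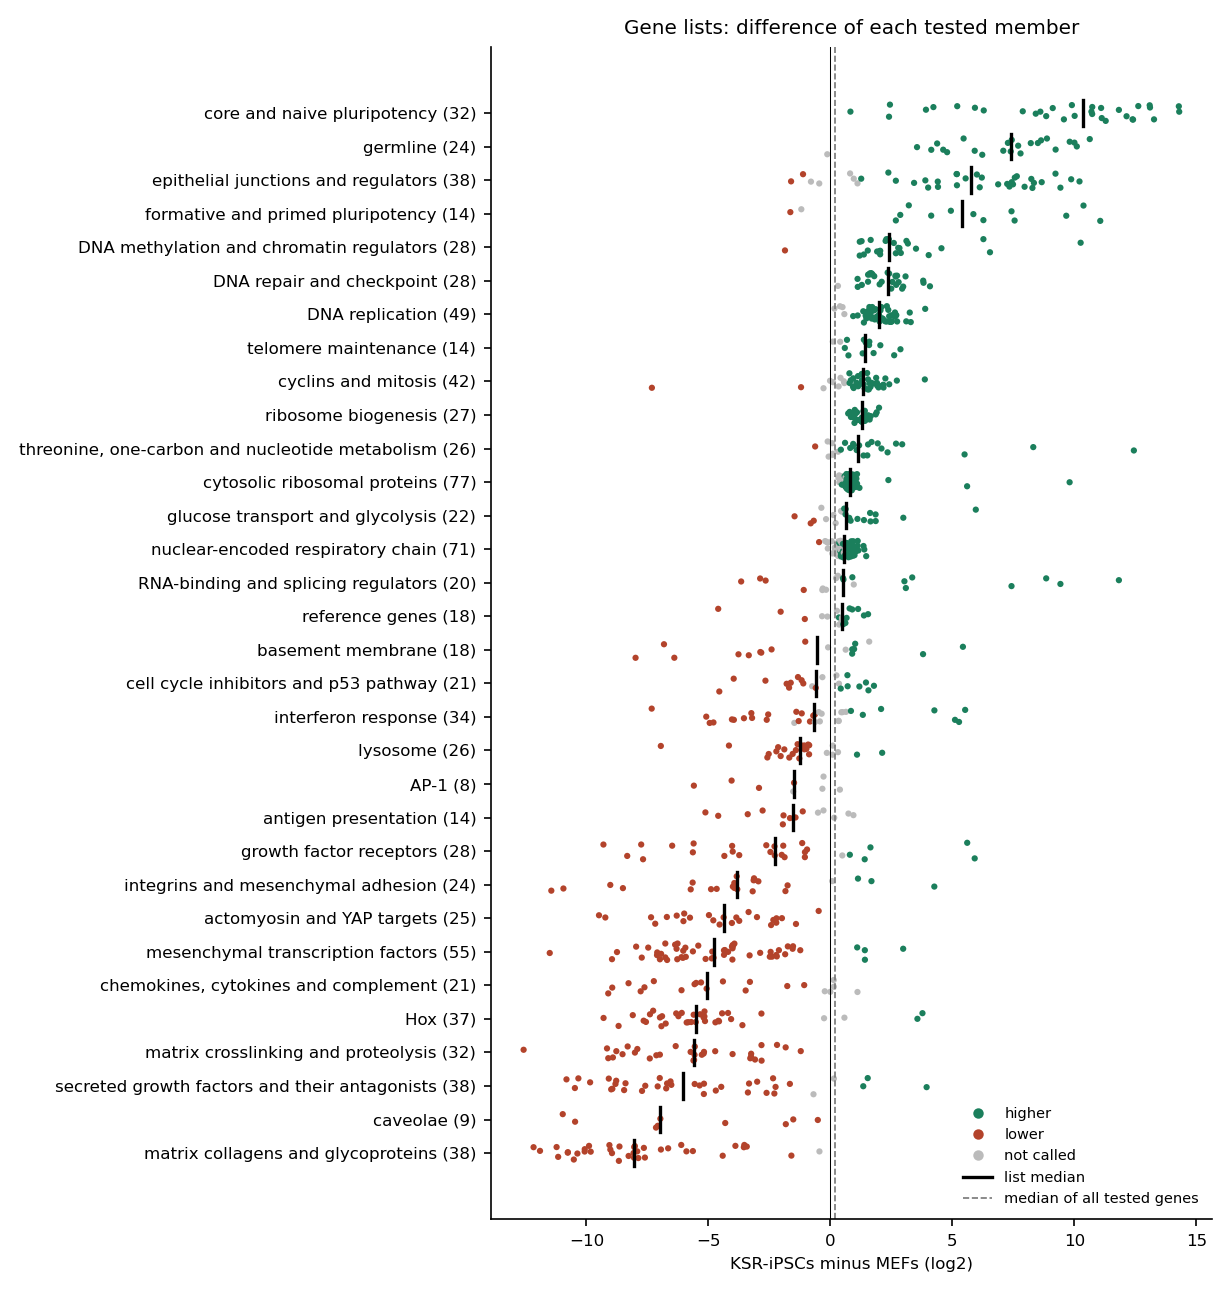
Difference between KSR-iPSCs and MEFs, on the log2 scale, of each tested member of 32 gene lists, ordered by list median (black bars), with the number of tested members in brackets. Green points rose, red points fell and grey points were not called, and the dashed line is the 0.19 median of all tested genes. Core and naive pluripotency stands at one end with a median of 10.36 and matrix collagens and glycoproteins at the other with -8.06.

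Markers of other cell types were read in the same libraries. Of 10 autosomal macrophage and blood markers, 8 were tested, all 8 fell and 6 were lost. Their sum was 212 to 264 RPM in MEFs and 10.6 to 33.2 RPM in KSR-iPSCs. Lyz2, lysozyme of macrophages, had 121, 137 and 162 RPM in MEFs and no read in any KSR-iPSC library, at least 816-fold lower, and Emr1, which encodes F4/80, read 12.2, 11.3 and 13.0 RPM against no reads, at least 71.3-fold lower. Tyrobp, a myeloid signalling adaptor, and Csf1r, the receptor of macrophage growth factor, differed by -7.30 (SE 0.34) and -6.73 (SE 0.91). What part such cells had in the lost immune and lysosomal genes was not tested. Cartilage markers fell in 6 of 7 cases (5 lost), with a summed level of 523 to 716 RPM in MEFs and 12.8 to 29.6 RPM in KSR-iPSCs. Col2a1, type II collagen, fell from 624, 447 and 477 RPM to a median of 10.6 RPM, and Sox9, the cartilage master factor, fell by 6.48 (SE 0.77).

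Markers of early lineages went both ways, with more that rose than fell in KSR-iPSCs, a surplus that depends on the filter. Sox17, T and Neurod1, for example, had no MEF reads and passed the filter through KSR-iPSCs only. With a log2 value above 0 asked of 3 libraries in each group, 0 neural markers were called higher and 2 lower. Trophoblast and skeletal muscle markers then each had 0 higher and 1 lower. Among 9 tested endoderm markers, 6 rose and 1 fell. Afp, alpha-fetoprotein, was not tested and had no read in any of the 15 libraries. Sox17, a definitive and primitive endoderm factor, had no MEF reads and a KSR-iPSC median of 2.00 RPM. Its values were 7.80, 11.6 and 12.0 RPM in M KSR3 and at most 2.57 RPM in 7 of the other 9 libraries. Dab2, an adaptor protein of endoderm that fibroblasts also express, fell by 2.22 (SE 0.24). Of 3 tested early mesoderm markers 2 rose, among them T, brachyury, from 0 reads to between 0.277 and 9.70 RPM, and of 6 trophoblast markers 4 rose, among them Tfap2c by 9.88 (SE 0.35). Tfap2c, an AP-2 factor that is also a gene of naive pluripotency and germ cells, had at most 0.153 RPM in MEFs and 36.9 to 148 RPM in KSR-iPSCs. Neural markers split into 4 that rose, such as the neuronal factor Neurod1 from 0 reads to a median of 4.75 RPM, and 2 that fell, such as nestin (Nes), which fell by 2.99 (SE 0.46). Endothelial markers rose in 5 of 6 cases, with a sum of 2.44 to 6.41 RPM in MEFs and 76.4 to 203 RPM in KSR-iPSCs, of which Pecam1, an adhesion molecule that mouse pluripotent cells are also known to carry, made up 43.4 to 184 RPM. Muscle markers went both ways, with Mylpf, a fast myosin light chain, up by 6.75 (SE 0.35) and desmin (Des) at a difference of -2.58 (SE 0.33).

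The 4 clones were compared with each other within the gained and lost genes. M KSR3 differed from the mean of the other 3 lines in 403 of 3897 genes (10.3%, beside 10.3% of all tested genes), and split into 199 genes nearer to the MEF level and 204 farther from it. F KSR4 differed in 100 (2.57%, beside 2.86%), F KSR2 in 73 (1.87%, beside 1.93%) and M KSR5 in 22 (0.565%, beside 0.309%). Shares near the background of all genes are no result about the gained and lost genes. Leaving out single libraries moved these counts to 26 to 152 for F KSR2, 39 to 391 for F KSR4, 112 to 616 for M KSR3 and 2 to 58 for M KSR5, with the highest F KSR4 value reached without its first library and the highest M KSR3 value without the second library of F KSR4.

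Among the genes of each line that differed most from the other lines in the direction of the MEF level, P4ha3, a prolyl hydroxylase of collagen, kept 27.7, 15.2 and 4.93 RPM in F KSR2 beside 88.0, 54.8 and 53.2 RPM in MEFs and at most 2.20 RPM in the other lines. Fam20a, a secretory pathway pseudokinase, read 1.40, 2.97 and 2.28 RPM in M KSR3 and at most 0.280 RPM in the other lines. In M KSR3 Osm, the cytokine oncostatin M, had 0.407, 0.154 and 0.167 RPM where the other lines had 1.74 to 8.25 RPM. Fgf15, a growth factor of the FGF19 group, had 0.256 to 0.407 RPM there and 1.11 to 10.8 RPM elsewhere. In M KSR5 Pramel6, a PRAME family gene of the early embryo, had 0.0552, 0.504 and 0.289 RPM, below its 1.69 to 30.0 RPM in the other lines, and Adm, the vasodilator peptide adrenomedullin, kept 10.4, 9.70 and 5.62 RPM beside 32.6 to 43.7 RPM in MEFs. Hand2, a factor of heart and limb mesenchyme, and Atoh8, a basic helix-loop-helix factor, were the lost genes named by this rule in F KSR4, where both stayed under 1 RPM. Pramel6 and other PRAME family genes have near-identical copies, so that their counts are uncertain.

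Some chromosomes stood apart in one line or more. In M KSR3, the median gene of chromosome 1 was 0.58 higher than in the other lines on the log2 scale, that of chromosome 8 was 0.38 higher and that of chromosome 11 was 0.38 higher. The median maternal share of allelic reads on these chromosomes in M KSR3 was 68.2%, 66.4% and 64.2%, whereas the autosomes of MEFs lay between 50.8% and 52.3%. Chromosomes 1, 8 and 11 held 36, 27 and 51 of the 403 genes in which M KSR3 differed. They held 274, 185 and 312 of all 3897 gained or lost genes, and most of the 403 lay on other chromosomes. In M KSR5 the median gene of chromosome 15 was 0.45 higher, with a maternal share of 62.5%, and in F KSR2 chromosome 6 had a maternal share of 97.1%. Chromosome 4 held 102 of the 268 tested genes in which F KSR2 differed, 8 of them higher, though its median gene differed by -0.05. It held 18 of the 73 gained or lost genes in which F KSR2 differed, beside 281 of all 3897. Chromosome 8 also had a raised maternal share in F KSR4, at 64.2% with libraries from 58.0% to 67.5%, where its median gene differed by -0.05 from the other lines. In F KSR2 the median gene of chromosome 8 differed by -0.35 from the other lines, M KSR3 included, with a maternal share of 51.8%. In F KSR4 that of chromosome 1 differed by -0.32, M KSR3 again included, with a maternal share of 52.0%. The median gene of every autosome was lower in F KSR4 than in the other lines, with -0.27 on chromosome 11. What these values contributed to the differences between lines was not tested. Gained genes made up 9.28% (chromosome 3) to 17.55% (chromosome 7) of tested genes, and lost genes 9.89% (chromosome 17) to 20.32% (chromosome 3).

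Allelic reads told BL6 from CAST transcripts. With at least 10 allelic reads in every library of the group, 974 gained genes could be read in KSR-iPSCs, with a median maternal share of 53.3%. A share between 40% and 60% was found in 60.2% of them, beside 74.1% of all 8648 genes measured there. In MEFs 1666 lost genes had a median of 51.4%, and 70.2% lay between 40% and 60%, beside 80.3% of all 9951 genes. With at least 20 reads the shares were 61.7% of gained genes beside 75.4% of all, and 74.2% of lost genes beside 83.0%. Maternal shares above 90% were seen in 16 gained and 14 lost genes, and shares below 10% in 9 and 14.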

How the data were processed

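PolyA RNA-seq libraries of MEFs and 4 KSR-iPSC lines were analysed. The authors trimmed reads with Trim Galore 0.6.1 and aligned them to GRCm38 with HISAT2 2.1.0 (per the submitters' processing notes), and deposited log2 values of RPM (reads per 1000000 mapped reads), without length correction, in which 0 reads stand as 0.9 read. Read numbers recovered from these values were whole within 0.05 read for at least 99.973% of values. The members, gene lists and tests were chosen with earlier results of these data known.

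The deposited log2 values for the 14489 genes of all chromosomes that passed the filter on low values were fitted with limma 3.58.1 (R 4.3.3, a mean per group, empirical Bayes with trend, 2-sided), with Benjamini-Hochberg adjustment over all of them. Tables were made in Python 3.11.15 with pandas 2.3.3, and the fit was tested on simulated data. Levels are RPM with 0 reads written as 0, and 3 reads per library was the floor for a fold against 0. Named genes were the 4 markers, the 10 largest gains and losses, up to 4 leading members of each list with up to 2 opposed, and the 5 genes of each line with the largest difference from the other lines towards the MEF level. Mmp3 and Cldn4 fall outside this rule. One gene that the rule names is not reported here. Motifs were searched in 250 bases before the deposited gene starts in the GRCm38.p6 sequence from RefSeq. RefSeq's promoter table matched 9572 genes, 4233 of them with the same 250 bases. Printed promoters were taken from that table, while the shares of promoters with a motif were counted at the deposited starts.

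Replicate numbers did not pair the samples, with correlations of -0.199 to 0.324 over 30 same-number pairs and 9 above 0.1. Alternatives were another pseudocount, reads below 3 set to 3, other filters, median-of-ratios scaling, limma-voom on recovered reads, a replicate block, line as a random effect, line means, a single sex and leaving out libraries. Maternal share was BL6 of BL6 plus CAST reads, from the deposited log2 values of each genome. TX 2i ESCs and reads assigned to neither genome were not used here.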

Additional observations from a re-analysis of the deposited data

Results flagged for a closer look

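A line was taken to differ from the mean of the other 3 lines where limma's test of that difference passed, with adjusted p below 0.05. Among the 3897 gained or lost genes this held for 403 of M KSR3, 100 of F KSR4, 73 of F KSR2 and 22 of M KSR5. In each line the 5 such genes with the largest difference towards the MEF level are given, with differences on the log2 scale.

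In F KSR2, Gm16211, a predicted gene, was lower by -4.57, at a line mean of 0.313 RPM beside 4.64 to 6.85 RPM in the other lines. P4ha3 was higher by 4.36, Kcnma1, a calcium-gated potassium channel, by 2.90, Glrx, glutaredoxin, by 2.49 and Lilrb3, an inhibitory receptor of myeloid cells, by 2.22. P4ha3 and Glrx stood at line means of 16.0 and 9.16 RPM beside MEF means of 65.3 and 16.9 RPM.

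In F KSR4, the lost genes Atoh8 and Hand2 were higher by 3.06 and 3.04. The gained genes Dyrk4, a protein kinase, AC150897.1, an uncharacterised gene, and Calb2, the calcium-binding protein calretinin, differed by -2.97, -2.88 and -2.87. All 5 were under 1 RPM in this line.

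In M KSR3, Fam20a was higher by 4.45, with adjusted p 0.00074 by limma. Osm differed by -4.12, Fgf15 by -3.77, Vrtn, a gene of vertebral number, by -3.39 and Wnt7b, a Wnt ligand, by -3.39. Wnt7b stood at a line mean of 0.851 RPM beside 9.10 to 15.9 RPM in the other lines.

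In M KSR5, the neighbouring genes Pramel6 and Pramel7 on chromosome 2 differed by -5.09 and -3.86, Dnajc5g, a DnaJ chaperone gene, by -3.12 and Hsh2d, an adaptor of haematopoietic cells, by -2.73. Adm was higher by 3.10, with adjusted p 0.0491 by limma. Pramel7 stood at a line mean of 0.376 RPM beside 4.97 to 10.7 RPM in the other lines.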

How the results depend on the processing

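The counts of gained and lost genes depended on how low values were handled. With a pseudocount of 1 RPM 1098 genes were gained, and with a log2 value above 0 asked of 3 libraries in each group 547 were gained and 1261 lost. With a filter on the mean of group means 1228 were lost. These filters and pseudocounts remove or shrink genes that lack reads in a group. Leaving out single libraries gave 5161 to 6042 genes higher, 4091 to 4705 lower, 1871 to 1982 gained and 2010 to 2066 lost. Line as a random effect used a single fitted correlation among libraries of a line and among MEF libraries. It gave 4798 genes higher and 3796 lower, against 5680 and 4542 in the main fit, and 1875 gained and 2005 lost. Female lines alone, from the sex of the MEFs, gave 4744 genes higher, 4198 lower, 1891 gained and 2111 lost. Male lines alone gave 6367 higher, 4700 lower, 2105 gained and 2025 lost, so the number of genes called higher depended on the lines used.

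Counts of genes in which a line differs from the others were unstable. Leaving out single libraries gave 26 to 152 for F KSR2, 39 to 391 for F KSR4, 112 to 616 for M KSR3 and 2 to 58 for M KSR5. Without the second library of F KSR4 and the third of M KSR5 together, an alternative chosen after seeing the data, F KSR2 differed in 166 genes, M KSR3 in 655 and M KSR5 in 108. With the replicate block, the counts were 1879 gained and 2018 lost, and 421 genes for M KSR3, 143 for F KSR4, 63 for F KSR2 and 21 for M KSR5.

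None of the 143 called genes named in the text lost its call in any alternative run for it. The genes named for a single line lost theirs in 53 of 420 comparisons. Most called members of a list went the other way in 5 of 1260 comparisons, all in neural, trophoblast and skeletal muscle markers. Genes with fewer than 3 reads in a library have no usable fold at this depth. Differences printed for such genes, among them Mgp, Ogn, Osr1, Hoxc8, Hoxa9 and Tyrobp, give a direction and no usable size.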
